A study of Mus musculus with 24 samples.

Results

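The genes described here are 34 genes of sterol and fatty acid synthesis in the hippocampus of mice aged 10 days. A gene was taken as measured where the array annotation gave a row of the expression table exactly 1 symbol and that symbol was the gene's own. By this rule 30 of the 34 genes were measured, each through 1 row, out of 14939 rows with a single symbol and 23238 rows in all. They were 16 of the 19 sterol enzymes, all 6 regulators of the sterol pathway, and 8 of the 9 fatty acid enzymes. Acat2 and Idi1 had no such row, and Tm7sf2 and Acss2 occurred only in rows that carry several symbols, so these 4 genes were not measured.

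The samples were 24 BALB-c mice aged 10 days, 1 Affymetrix Mouse Exon 1.0 ST array per mouse, hybridized with RNA of the right hippocampus, which is the side of the ligated carotid artery. The 4 groups of 6 mice are called here by the start of their titles. Per the labels, Sham_N mice were sham-injured and untreated, Sham_Y mice were sham-injured and given high-dose recombinant erythropoietin (EPO), Epo_N mice were brain-injured and untreated, and Epo_Y mice were brain-injured and given EPO. The titles can also be read with the treatment first and the injury as the letter. Sham_Y would then be injured without EPO and Epo_N uninjured with EPO, while Sham_N and Epo_Y stay as labelled. The sources used here do not settle which reading holds, so each difference is stated between title groups and no cause is assigned to it. The label gives a whole tissue piece, and in such a bulk sample fewer cells of a type cannot be told apart from less RNA per cell.

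Cholesterol is built from acetyl-CoA through mevalonate, isoprenoids, squalene and lanosterol, and fatty acids are built from the same precursor by carboxylation, chain synthesis, elongation and desaturation. The transcription factors SREBP2 and SREBP1, encoded by Srebf2 and Srebf1, switch on these enzyme genes. They are carried by SCAP to the Golgi for cleavage when membrane sterol is low, and are held in the endoplasmic reticulum by the INSIG proteins when sterol is high. In the brain nearly all cholesterol is made locally, since lipoproteins of the blood do not cross the blood-brain barrier, and in the first weeks after birth it goes into growing neurites, synapses and myelin.

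The promoters of 4 sterol enzymes and 1 fatty acid enzyme that fell in the comparisons below, chosen with their values known, are shown. SREBP is known to act beside the factors NF-Y and Sp1, so the start regions were searched for their motifs. Each runs 5′ to 3′ from 250 bases before to 50 bases after the RefSeq start on GRCm38.p6, and lies at chr13:119690101-119690400 on the plus strand for Hmgcs1, chr5:4104648-4104947 on the minus strand for Cyp51, chr8:122443373-122443672 on the minus strand for Mvd, chr10:76531355-76531654 on the plus strand for Lss and chr3:129532136-129532435 on the plus strand for Elovl6. Capitals mark the NF-Y motif CCAAT on either strand, which reads ATTGG where it lies on the other strand, and in Hmgcs1 also the sterol response element type TCACNCCAC.
Hmgcs1: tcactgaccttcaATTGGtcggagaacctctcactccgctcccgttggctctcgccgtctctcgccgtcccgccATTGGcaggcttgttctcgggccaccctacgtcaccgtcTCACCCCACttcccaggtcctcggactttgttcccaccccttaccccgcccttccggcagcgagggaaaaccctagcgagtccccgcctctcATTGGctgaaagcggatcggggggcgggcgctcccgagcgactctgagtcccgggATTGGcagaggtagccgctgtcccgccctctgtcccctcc
Cyp51: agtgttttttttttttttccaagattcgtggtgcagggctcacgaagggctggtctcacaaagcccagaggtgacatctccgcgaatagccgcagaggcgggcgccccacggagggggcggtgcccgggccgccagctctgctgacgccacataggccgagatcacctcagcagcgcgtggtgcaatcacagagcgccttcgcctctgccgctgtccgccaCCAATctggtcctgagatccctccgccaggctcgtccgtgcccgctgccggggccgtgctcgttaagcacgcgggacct
Mvd: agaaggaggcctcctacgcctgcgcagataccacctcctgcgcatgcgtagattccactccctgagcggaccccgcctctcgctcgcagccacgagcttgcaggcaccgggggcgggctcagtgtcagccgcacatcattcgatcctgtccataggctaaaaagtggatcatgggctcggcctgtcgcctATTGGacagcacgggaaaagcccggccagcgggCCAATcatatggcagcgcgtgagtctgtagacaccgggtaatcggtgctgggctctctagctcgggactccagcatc
Lss: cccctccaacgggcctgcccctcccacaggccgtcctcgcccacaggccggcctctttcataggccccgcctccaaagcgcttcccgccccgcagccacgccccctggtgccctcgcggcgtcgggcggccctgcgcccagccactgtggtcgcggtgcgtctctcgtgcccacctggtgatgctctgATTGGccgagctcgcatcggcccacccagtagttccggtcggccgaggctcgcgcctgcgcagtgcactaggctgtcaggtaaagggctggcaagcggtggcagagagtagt
Elovl6: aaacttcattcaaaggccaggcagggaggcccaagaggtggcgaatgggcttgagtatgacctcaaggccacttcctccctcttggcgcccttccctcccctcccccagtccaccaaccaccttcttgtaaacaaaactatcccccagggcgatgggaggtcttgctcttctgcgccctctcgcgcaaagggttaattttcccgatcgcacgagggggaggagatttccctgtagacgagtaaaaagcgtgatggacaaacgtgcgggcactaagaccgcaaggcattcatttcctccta

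Hmgcs1 held 4 matches of CCAAT and 1 of TCACNCCAC, the latter beginning 137 bases before the start. Mvd held 2 matches of CCAAT, Cyp51 and Lss held 1 each, and the printed window of Elovl6 held none. The window of Fasn, another fatty acid enzyme that fell and is not printed, held 3. Among genes with a RefSeq promoter entry, searched on both strands in any listed start, CCAAT occurred in 15 of 16 sterol enzymes (93.8%), 4 of 5 regulators (80.0%) and 3 of 6 fatty acid enzymes (50.0%), against 41.1% of 27025 genes. The Sp1 motif GGGCGG occurred in 14 of 16 sterol enzymes (87.5%), 5 of 5 regulators and 3 of 6 fatty acid enzymes, against 38.2% of all genes. TCACNCCAC occurred only in Hmgcs1 among the 27 members with an entry and in 1.44% of all genes, and the E-box CACGTG occurred in 3 sterol enzymes, 2 regulators and 0 fatty acid enzymes, against 8.09%. In the printed windows no matches of different motifs overlapped, and a match is a description of these windows only. Elovl6 and Acaca held no match of any of these motifs. Sqle, Fdps, Fdft1, Stard4, Scd1, Scd2 and Fads1 have no entry. The 16 sterol enzymes with an entry are therefore not the 16 measured ones, since they include the unmeasured Acat2, Idi1 and Tm7sf2.

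Array medians ran from 5.05 to 5.43 on the log2 scale and arrays correlated pairwise between 0.952 and 0.993. Epo_Y replicate 3 had the lowest median of all 24 arrays and the lowest mean correlation with its own group (0.974). Each title also holds a letter code of unstated meaning, which takes 7 values, and 11 arrays, spread over all 4 groups, have the code 3D. The mean log2 value of 9 neuron markers ran from 10.67 to 10.88 in Sham_N, 9.75 to 10.21 in Sham_Y, 10.74 to 10.86 in Epo_N and 10.46 to 10.79 in Epo_Y, so the tissue carried clear neuronal signal in every group. Gfap, the filament gene of reactive astrocytes, ran from 8.58 to 9.30 in Sham_N and from 8.92 to 9.45 in Epo_N, labelled brain-injured, and from 10.85 to 11.56 in Sham_Y, labelled sham-injured. In Epo_Y it spanned 8.63 to 11.62. Gfap was singled out after its values were seen, and Aldoc, another astrocyte marker, differed by -0.12 ± 0.08 between Sham_Y and Sham_N without passing. Adipocyte markers had means between 3.88 and 4.27 on every array.

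The comparison of Sham_Y with Sham_N asks, by the labels, what EPO did in sham-injured mice. In it, 13 of the 30 measured members were lower in Sham_Y and none was higher (limma, Benjamini-Hochberg adjusted p under 0.05 over all rows). Of all rows, 7.6% were called lower and 11.5% higher, and of the rows brighter than the median row, where most members lie, 14.1% were called lower. The genes that fell came from both arms. They were 6 of 16 sterol enzymes, 3 of 6 regulators and 4 of 8 fatty acid enzymes, and the median difference was -0.28, -0.32 and -0.32 on the log2 scale in the same order, against 0.03 for all rows. Counted without any test, 25 of the 30 members had a difference below 0. In 9 members every Sham_Y array lay below every Sham_N array, where 3.88% of all rows did so.

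Hmgcs1 encodes the cytosolic synthase that makes HMG-CoA, the step that commits acetyl units to mevalonate. Its lowest, median and highest log2 values were 10.35, 10.57 and 10.72 in Sham_N, 9.53, 9.74 and 9.81 in Sham_Y, 10.36, 10.58 and 10.71 in Epo_N, and 9.98, 10.25 and 10.56 in Epo_Y. All 6 Sham_Y arrays were therefore below the arrays of the other 3 groups. The difference between Sham_Y and Sham_N corresponded to a 1.79-fold lower level (limma adjusted p = 5.202e-07, n = 6 and 6).

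Mvd, the decarboxylase that yields isopentenyl diphosphate, ran from 7.83 over a median of 7.94 to 8.50 in Sham_N, from 7.36 over 7.57 to 7.81 in Sham_Y, from 7.77 over 8.32 to 8.62 in Epo_N and from 7.68 over 7.97 to 8.37 in Epo_Y. Sham_Y and Sham_N did not overlap, and the lowest arrays of Epo_N and Epo_Y reached into the Sham_Y range. Mvd fell by 0.50 ± 0.14 (SE, n = 6 and 6) on the log2 scale in Sham_Y against Sham_N (limma adjusted p = 0.01135). The kinases between these steps did not pass, with -0.27 ± 0.10 for Mvk and 0.07 ± 0.11 for Pmvk, so that 2 of 4 measured genes from acetoacetyl-CoA to isopentenyl diphosphate fell.

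The middle of the pathway, from isoprenoid condensation to squalene, held no called gene, with Fdft1 close to the threshold. Fdft1, the squalene synthase at the branch toward sterols, differed by -0.41 ± 0.15 (limma adjusted p = 0.0646), although no Sham_Y array reached the Sham_N range. It was called lower with the 2 groups alone (limma adjusted p = 0.004887), with centred arrays (0.007871) and with array weights (0.03552). Leaving out dim rows, using rows with 1 symbol, or omitting any of Epo_Y replicates 4 and 5 and Epo_N replicate 6 also gave the call. Quantile normalization and the letter code as a fixed block did not. Ggps1, which makes the lipid anchor of small GTPases rather than sterol, differed by -0.20 ± 0.16 and passed with centred arrays (limma adjusted p = 0.04489). Fdps had values of only 2.64 to 4.21 on all 24 arrays, below the median row mean of 5.25, and its difference of -0.24 ± 0.24 carries little information.

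Sqle encodes squalene monooxygenase, a rate-limiting oxygen-dependent step. Its values ran from 8.75 over a median of 8.93 to 9.13 in Sham_N, from 7.79 over 7.96 to 8.34 in Sham_Y, from 8.89 over 9.20 to 9.41 in Epo_N and from 8.10 over 8.89 to 9.15 in Epo_Y. Sham_Y lay wholly below Sham_N and Epo_N, and Epo_Y spanned from the Sham_Y range to the Sham_N range. The level in Sham_Y was 1.90-fold lower than in Sham_N (limma adjusted p = 7.311e-05, n = 6 and 6).

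Lss, which closes oxidosqualene to lanosterol, ran from 6.88 over 7.04 to 7.41 in Sham_N, from 6.31 over 6.73 to 7.02 in Sham_Y, from 7.09 over 7.19 to 7.23 in Epo_N and from 6.36 over 6.76 to 7.08 in Epo_Y. Only 3 of the 6 Sham_Y arrays were below all Sham_N arrays, and Epo_Y covered nearly the same range as Sham_Y. Lss fell by 0.44 ± 0.13 on the log2 scale (limma adjusted p = 0.01933, n = 6 and 6). It did not pass with the 2 groups alone (limma adjusted p = 0.05819), or without any of Sham_N replicates 3 and 6 and Sham_Y replicates 5 and 6.

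Cyp51, the lanosterol demethylase, ran from 8.12 over 8.38 to 8.69 in Sham_N, from 7.40 over 7.60 to 7.72 in Sham_Y, from 8.41 over 8.52 to 8.71 in Epo_N and from 7.43 over 7.98 to 8.52 in Epo_Y. The Sham_Y arrays did not overlap Sham_N or Epo_N, and the Sham_Y level was 1.76-fold below Sham_N (limma adjusted p = 0.0001444, n = 6 and 6). Msmo1, the methylsterol monooxygenase that acts after it, ran from 10.69 over 10.82 to 10.99 in Sham_N, from 10.23 over 10.38 to 10.78 in Sham_Y, from 10.84 over 11.01 to 11.13 in Epo_N and from 10.26 over 10.85 to 11.01 in Epo_Y. A single Sham_Y array reached the Sham_N range, and Msmo1 fell by 0.40 ± 0.12 (limma adjusted p = 0.02032, n = 6 and 6). Msmo1 did not pass without Sham_Y replicate 6 (limma adjusted p = 0.05389).

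The other 5 measured genes between lanosterol and cholesterol did not pass. Nsdhl, Sc5d and Dhcr7, a decarboxylating dehydrogenase, a desaturase and the final reductase, differed by -0.30 ± 0.15, -0.25 ± 0.10 and -0.23 ± 0.13, with 95% intervals that reached -0.61, -0.45 and -0.50. Hsd17b7, a ketosteroid reductase, differed by -0.16 ± 0.14 and Ebp, the sterol isomerase, by 0.06 ± 0.13. By stage, 2 of 2 genes from squalene to lanosterol fell and 2 of 7 from lanosterol to cholesterol did. Of all rows 7.6% were called lower, and of the rows brighter than the median row 14.1%. The call of Lss, 1 of the 2, did not hold in every setting, and stages of so few genes carry no pattern of their own.

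**Figure D1:**
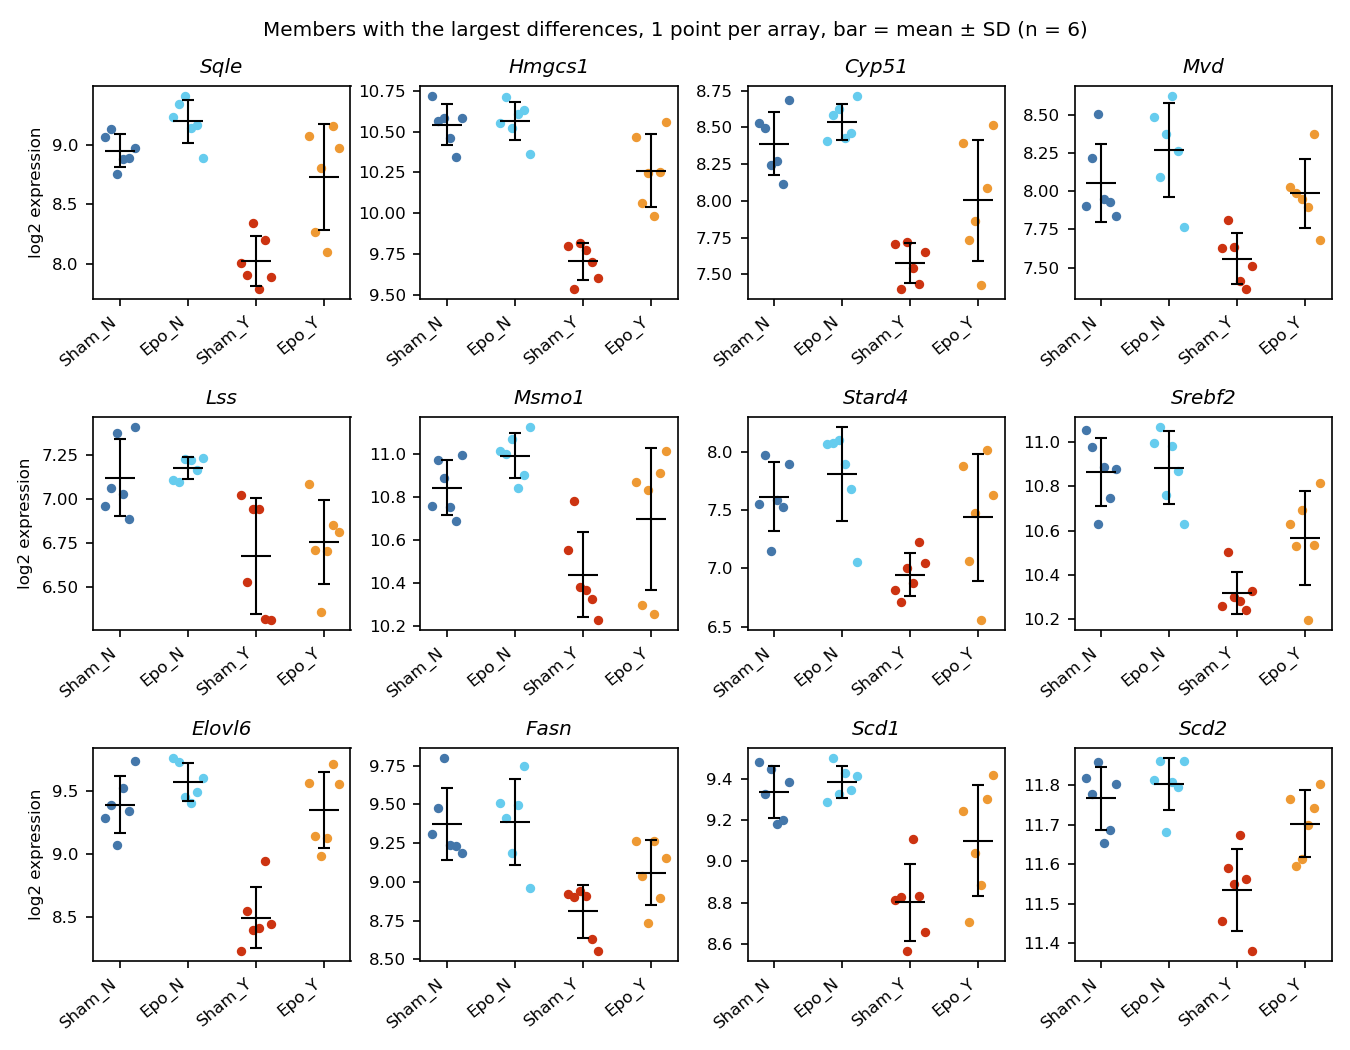
Log2 expression on each array (vertical axis, 1 point per array) of 12 of the 13 members called lower in Sham_Y than in Sham_N (6 sterol enzymes, 2 regulators and 4 fatty acid enzymes, Insig1 not drawn), by group (horizontal axis), with the mean ± SD of 6 arrays. For Hmgcs1 the 6 Sham_Y arrays lie between 9.53 and 9.81, below every array of the other groups, whereas for Sqle the Epo_Y arrays spread from 8.10 to 9.15.

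Among the regulators, Srebf2, the transcription factor gene of the sterol arm, ran from 10.63 over 10.88 to 11.06 in Sham_N, from 10.24 over 10.29 to 10.50 in Sham_Y, from 10.63 over 10.92 to 11.07 in Epo_N and from 10.20 over 10.58 to 10.82 in Epo_Y. Sham_Y did not overlap Sham_N or Epo_N, and Srebf2 fell by 0.54 ± 0.10 against Sham_N (limma adjusted p = 0.0002062, n = 6 and 6). Srebf1, which serves mainly the fatty acid arm, differed by 0.14 ± 0.16, with a 95% interval from -0.18 to 0.47. Scap, the escort protein, differed by 0.02 ± 0.09, with an interval from -0.17 to 0.21.

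Stard4, a sterol carrier protein and SREBP2 target, ran from 7.15 over 7.57 to 7.98 in Sham_N, from 6.71 over 6.94 to 7.23 in Sham_Y, from 7.06 over 7.98 to 8.10 in Epo_N and from 6.56 over 7.55 to 8.02 in Epo_Y. A single Sham_Y array overlapped Sham_N, and Stard4 fell by 0.67 ± 0.21 (limma adjusted p = 0.02519, n = 6 and 6). Stard4 did not pass without Sham_Y replicate 2, Sham_N replicate 2 or Sham_N replicate 6 (limma adjusted p = 0.05694, 0.06316 and 0.05849). The spread within Epo_Y was the widest of the 4 groups. Insig1, the retention protein that SREBP itself induces, fell by 0.38 ± 0.10 (limma adjusted p = 0.007149), and its relative Insig2 differed by -0.27 ± 0.14 without passing.

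In the fatty acid arm the largest difference was in Elovl6, the elongase that extends palmitate to stearate. Its values ran from 9.07 over 9.36 to 9.74 in Sham_N, from 8.23 over 8.43 to 8.95 in Sham_Y, from 9.40 over 9.55 to 9.76 in Epo_N and from 8.99 over 9.35 to 9.71 in Epo_Y. All Sham_Y arrays lay below all arrays of the other 3 groups, and the 3 others overlapped each other. Elovl6 was 1.86-fold lower in Sham_Y than in Sham_N, a difference of -0.89 ± 0.13 (limma adjusted p = 2.487e-05, n = 6 and 6).

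Fasn, the fatty acid synthase, ran from 9.19 over 9.27 to 9.80 in Sham_N, from 8.55 over 8.90 to 8.94 in Sham_Y, from 8.96 over 9.45 to 9.75 in Epo_N and from 8.74 over 9.10 to 9.27 in Epo_Y. Sham_Y overlapped Epo_Y only, and Fasn fell by 0.56 ± 0.13 against Sham_N (limma adjusted p = 0.00246, n = 6 and 6). The enzymes that supply it with substrate did not pass, with -0.16 ± 0.09 for Acly, the ATP citrate lyase, and -0.42 ± 0.18 for Acaca, the acetyl-CoA carboxylase.

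Scd1 and Scd2 encode stearoyl-CoA desaturases, which make oleate, and Scd2 is the main form of the young mouse brain. Scd1 ran from 9.18 over 9.35 to 9.48 in Sham_N, from 8.56 over 8.82 to 9.11 in Sham_Y, from 9.29 over 9.38 to 9.50 in Epo_N and from 8.71 over 9.14 to 9.42 in Epo_Y. It fell by 0.54 ± 0.11 (limma adjusted p = 0.0006204, n = 6 and 6), with no overlap of Sham_Y and Sham_N. Scd2 ran from 11.65 over 11.79 to 11.86 in Sham_N, from 11.38 over 11.56 to 11.67 in Sham_Y, from 11.68 over 11.81 to 11.86 in Epo_N and from 11.60 over 11.72 to 11.80 in Epo_Y. It fell by 0.23 ± 0.06 (limma adjusted p = 0.01203, n = 6 and 6), and 1 Sham_Y array reached the Sham_N range. The desaturases of polyunsaturated fatty acids did not pass, with -0.14 ± 0.07 for Fads1 and 0.05 ± 0.10 for Fads2.

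Set side by side, the arms gave 6 of 16 sterol enzymes and 4 of 8 fatty acid enzymes called lower, and no test of the difference between arms was made. Each arm held members near 0, namely Pmvk and Ebp among sterol enzymes and Fads2 among fatty acid enzymes. The mean over the 16 sterol enzymes ran from 7.85 to 8.23 in Sham_N and from 7.58 to 7.82 in Sham_Y. The mean over the 8 fatty acid enzymes ran from 9.56 to 9.78 in Sham_N and from 9.23 to 9.41 in Sham_Y. In neither arm did these 2 groups overlap, whereas the Epo_Y arrays ran from 7.76 to 8.14 for sterol enzymes and from 9.30 to 9.74 for fatty acid enzymes, across the gap.

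**Figure D2:**
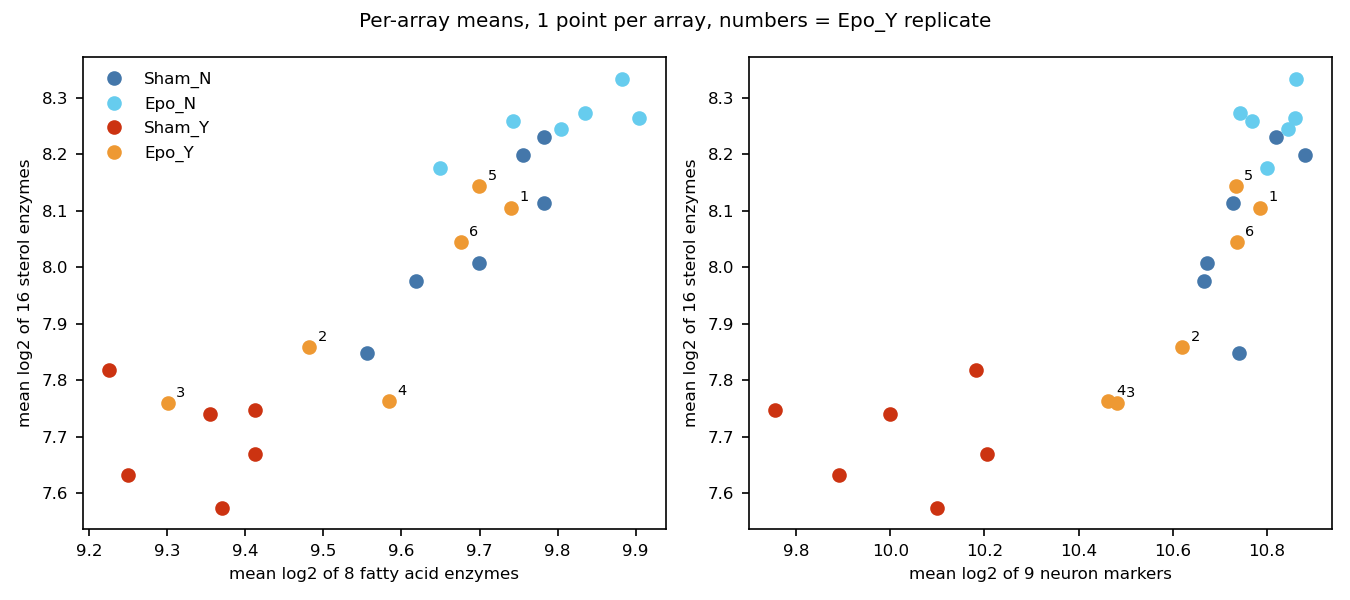
Mean log2 value of the 16 measured sterol enzymes on each array (vertical axes) against the mean of the 8 fatty acid enzymes (left) and of 9 neuron markers (right), coloured by group, with numbers for the Epo_Y replicates. Sham_Y arrays lie apart from Sham_N and Epo_N on both axes of the left panel, Epo_Y replicate 3 lies within the Sham_Y range on both, and Sham_Y neuron means lie between 9.75 and 10.21, below all other arrays.

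Cell type markers were also called in the same comparison, where 11.5% of all rows were called higher and 7.6% lower. Of rows brighter than the median row, 14.1% were called lower. Of 9 neuron markers 8 fell (median -0.71), while 3 of 6 astrocyte markers and 4 of 5 endothelial markers rose. Of 9 microglia and macrophage markers 5 rose and 2 fell, 2 of 12 oligodendrocyte lineage markers and 2 of 5 blood cell markers rose, and no choroid plexus or adipocyte marker passed. The oligodendrocyte lineage share (16.7%) was near that of all rows. The mean of the microglia and macrophage markers was 7.21 or more on every Sham_Y array, against a Sham_N group mean of 6.34. The part of these markers in the differences of the sterol and fatty acid genes was not tested.

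The scaling of the arrays set how many members passed. When each array was centred on its own median, the median of all rows moved from 0.03 to -0.15, the calls over all rows went from 2679 higher and 1766 lower to 1790 higher and 4286 lower, and 23 members were called lower. Quantile normalization gave 2611 rows higher, 2696 lower and 15 members lower. With the letter code of the titles as a fixed block 8 members passed, and Lss, Msmo1, Insig1, Stard4 and Scd2 did not. Within the 11 arrays of code 3D, where 2 Sham_Y arrays met 2 Sham_N arrays, Hmgcs1 alone passed, and the medians were -0.53 for sterol enzymes, -0.27 for regulators and -0.27 for fatty acid enzymes. Without Epo_Y replicate 3 the same number of members fell, and without Sham_Y replicate 6 the sterol enzymes called lower went from 6 to 4.

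Other genes of lipid handling differed in both directions between Sham_Y and Sham_N. Of 16 measured genes of sterol transport and turnover, 6 rose (37.5%) and 1 fell (6.25%), with a median of 0.29, against 11.5% of all rows called higher and 7.6% lower. Ch25h, which makes the signalling oxysterol 25-hydroxycholesterol, ran from 3.06 over 3.39 to 3.69 in Sham_N, and in Sham_Y it had a median of 5.65 and no value under 4.95. It rose by 2.15 ± 0.19 (limma adjusted p = 1.993e-08, n = 6 and 6), although its Sham_N values are below the median row mean of 5.25. Abca1, the cholesterol exporter induced by oxysterols through LXR, ran from 7.26 to 8.03 in Sham_N and from 8.47 to 9.67 in Sham_Y and rose by 1.27 ± 0.26 (limma adjusted p = 0.0009366).

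Of the lysosomal cholesterol genes Npc2 and Lipa rose, and the transporter Npc1 did not pass. Npc2, which hands cholesterol over for export from lysosomes, ran from 8.08 to 8.52 in Sham_N and from 9.22 to 9.77 in Sham_Y and rose by 1.16 ± 0.16 (limma adjusted p = 1.058e-05). Lipa, the lysosomal acid lipase, ran from 7.13 to 8.08 in Sham_N and from 7.95 to 8.98 in Sham_Y, with overlap, and rose by 0.93 ± 0.22 (limma adjusted p = 0.002951). The exporter Abcg1 and Nr1h3, the gene of LXR alpha, rose by 0.48 ± 0.14 and 0.57 ± 0.12, and Abcg4, an exporter of neural cells, fell by 0.69 ± 0.09. Nr1h3 ran from only 4.31 to 4.69 in Sham_N, below the median row mean of 5.25. Abcg1 did not pass with centred arrays (0.31, limma adjusted p = 0.06984), with the letter code as a fixed block (limma adjusted p = 0.08277), or without Sham_Y replicate 3 or 4. None of the 6 measured genes for SREBP proteases and the isoprenoid branch passed.

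Of 22 measured genes in other parts of fatty acid and glycerolipid metabolism, 3 rose (13.6%) and 4 fell (18.2%), with a median of 0.06. Of all rows 11.5% were called higher and 7.6% lower, and of rows brighter than the median row 14.1% were called lower. The share that rose was near that of all rows, and the share that fell was near that of the brighter rows. Plin2, the coat protein of lipid droplets, ran from 6.05 over 6.65 to 6.83 in Sham_N, from 10.56 over 10.67 to 11.05 in Sham_Y, from 6.70 over 7.13 to 7.20 in Epo_N and from 6.23 over 7.92 to 9.91 in Epo_Y. Sham_Y lay above all other arrays, and Plin2 rose by 4.18 ± 0.42 (limma adjusted p = 1.194e-07, n = 6 and 6). Elongases of very long chains split. Elovl1 rose by 1.65 ± 0.18, while Elovl2 and Elovl4 fell by 0.94 ± 0.14 and 0.58 ± 0.11. Gpam, which starts glycerolipid synthesis, rose by 0.48 ± 0.15. It did not pass with centred arrays (0.31, limma adjusted p = 0.06095), with the letter code as a fixed block (limma adjusted p = 0.08577), or without any of Sham_N replicates 1 and 5 and Sham_Y replicates 3, 4 and 5. Dgat2 and Acsl4, an acyltransferase and an acyl-CoA ligase, fell by 0.48 ± 0.08 and 0.55 ± 0.15.

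**Figure D3:**
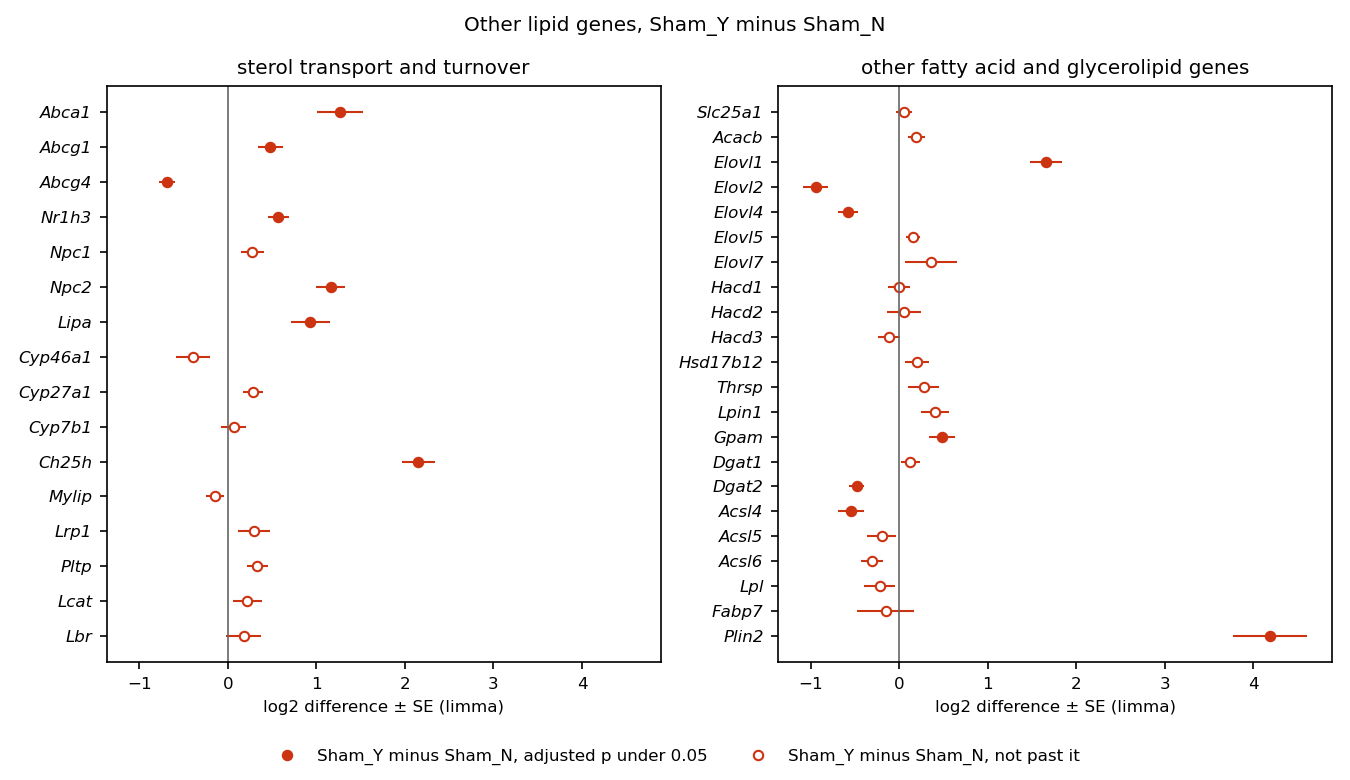
Log2 difference between Sham_Y and Sham_N (horizontal axes, estimate ± SE from limma, n = 6 and 6) of the 16 genes of sterol transport and turnover (left) and the 22 other fatty acid and glycerolipid genes (right), with filled points for adjusted p under 0.05. Plin2 stands farthest to the right at 4.18, and Ch25h leads the left panel at 2.15.

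The comparison of Epo_Y with Sham_Y asks, by the labels, what injury did in mice given EPO. It shares the Sham_Y arrays with the comparison above, so the 2 sets of differences are not independent. In it, 7 of 30 members were higher in Epo_Y and none was lower, against 6.05% of all rows called higher, 7.83% called lower, and 11.1% called higher among rows brighter than the median row. The 7 were 4 of 16 sterol enzymes, 2 of 6 regulators and 1 of 8 fatty acid enzymes, with medians of 0.24, 0.30 and 0.16 in the same order, against -0.01 for all rows.

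Hmgcs1 rose by 0.56 ± 0.09 in Epo_Y against Sham_Y, with no overlap of the groups (limma adjusted p = 0.0001881, n = 6 and 6). Sqle rose by 0.70 ± 0.15 (limma adjusted p = 0.002135), with 4 of 6 Epo_Y arrays above every Sham_Y array. Mvd and Cyp51 rose by 0.43 ± 0.14 each (limma adjusted p = 0.04023 and 0.04505), close to the threshold. Of the retention proteins, Insig1 rose by 0.35 ± 0.10 (limma adjusted p = 0.0189) and Insig2 by 0.42 ± 0.14 (limma adjusted p = 0.04188), the latter also close to the threshold. These errors rest on a spread shared by all 4 groups, and Epo_Y varied more than Sham_Y. The SD was 0.41 against 0.14 for Cyp51 and 0.30 against 0.08 for Insig2. With the 2 groups alone, Cyp51, Insig1 and Insig2 did not pass (limma adjusted p = 0.1457, 0.09939 and 0.06139).

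Elovl6 rose by 0.85 ± 0.13 (limma adjusted p = 9.384e-05, n = 6 and 6), a 1.80-fold higher level in Epo_Y with no overlap with Sham_Y. The other fatty acid enzymes had differences from 0.03 to 0.30, and Scd1 came closest to the threshold at 0.30 ± 0.11 (limma adjusted p = 0.06578). Several members that were lower in Sham_Y than in Sham_N did not pass here. Lss differed by 0.08 ± 0.13, Msmo1 by 0.26 ± 0.12, Stard4 by 0.49 ± 0.21, Srebf2 by 0.25 ± 0.10 and Fasn by 0.25 ± 0.13.

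These counts depended on single arrays and on the scaling. Centred arrays moved the all-row median from -0.01 to 0.11, changed the calls over all rows from 1407 higher and 1819 lower to 3095 higher and 1393 lower, and gave 17 members higher, while the letter code as a fixed block gave 4 and the arrays of code 3D gave 0. Without Epo_Y replicate 3 the count was 8, and the sterol enzymes went from 4 to 2 when any of Epo_Y replicates 1 and 5 or Sham_Y replicates 3, 4, 5 and 6 was left out. Cell type markers were called here too, where 6.05% of all rows were called higher and 7.83% lower. Of rows brighter than the median row, 11.1% were called higher. In Epo_Y 8 of 9 neuron markers were higher, and 4 of 5 endothelial, 2 of 12 oligodendrocyte lineage, 2 of 5 blood cell and 1 of 6 astrocyte markers were lower. Of 9 microglia and macrophage markers 4 were lower and 1 higher, no choroid plexus or adipocyte marker passed, and the part of these markers was not tested.

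**Figure D4:**
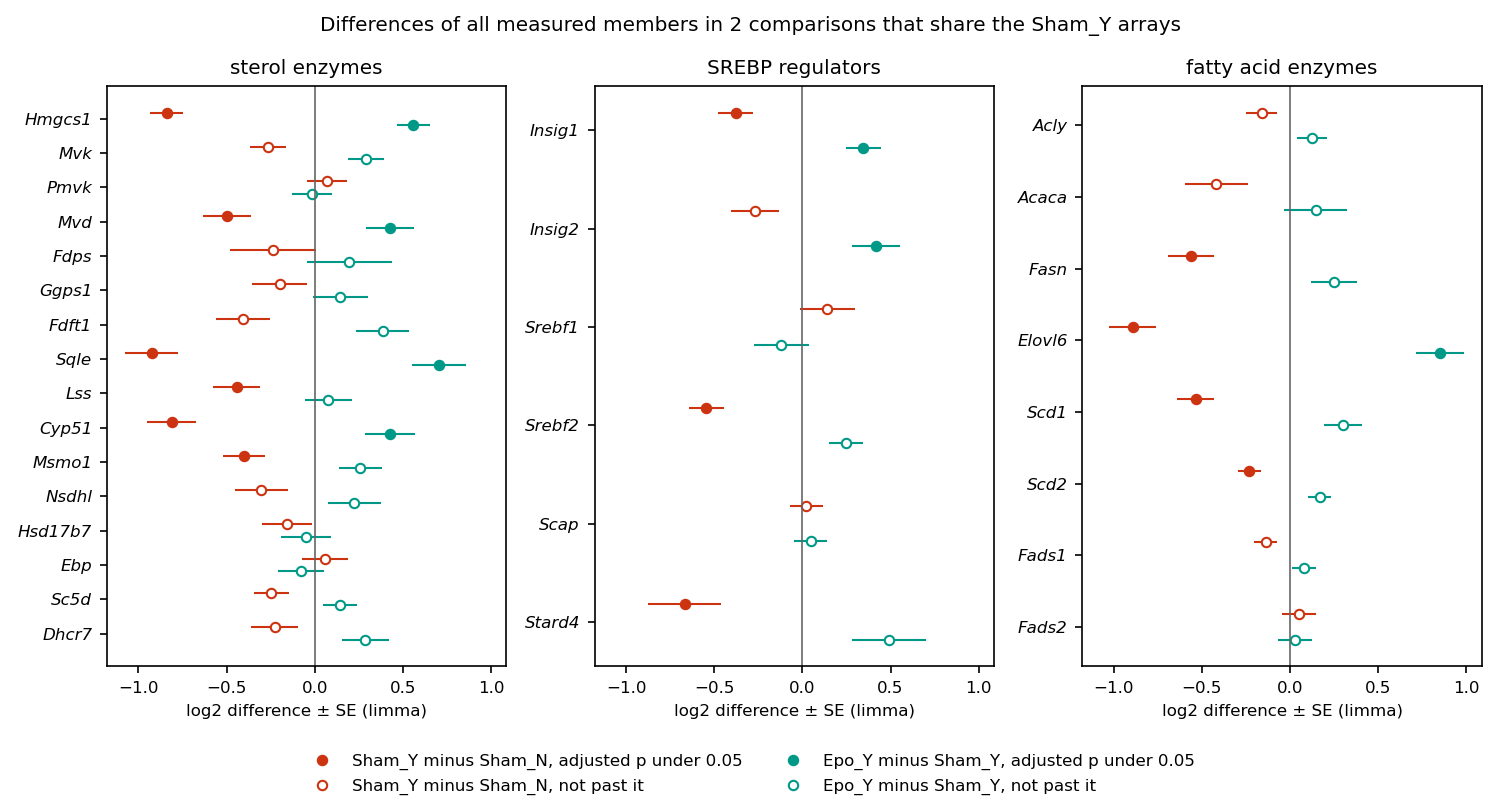
Log2 differences (horizontal axes, estimate ± SE from limma, n = 6 and 6) of all 30 measured members by arm, for Sham_Y minus Sham_N (red) and Epo_Y minus Sham_Y (green), filled where the adjusted p was under 0.05. Both series share the Sham_Y arrays. Sqle is farthest left at -0.92 and Elovl6 farthest right at 0.85.

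Within Epo_Y the arrays differed among themselves, and not in the same order for every member. Replicates 2 and 4 had the lowest Sqle values, 8.27 and 8.10, and the lowest Stard4 values, 7.07 and 6.56, whereas the other 4 arrays were at 8.81 to 9.15 for Sqle and 7.48 to 8.02 for Stard4. The same 2 arrays had the lowest Cyp51 values, 7.73 and 7.43. They also had the highest values of Plin2, 9.25 and 9.91, and of Gfap, 10.92 and 11.62. Replicate 5 did not follow this order, with Plin2 at 8.67 and Gfap at 10.74 beside the highest Sqle and Stard4 values of the group. Replicate 3 had the lowest Plin2, 6.23, and Gfap, 8.63, with Sqle at 8.81 and Elovl6 at 8.99, the lowest of the group. Over all measured members, replicates 2 and 4 were the lowest pair in 6 of 16 sterol enzymes (Hmgcs1, Fdft1, Sqle, Cyp51, Msmo1 and Nsdhl), 3 of 6 regulators and 1 of 8 fatty acid enzymes. Replicate 3 was the lowest array in 5 sterol enzymes, 2 regulators and 6 fatty acid enzymes. The share of all rows with either order was not counted, so neither order can be called particular to the members. Replicate 3 had the lowest array median of all. It also had the lowest Epo_Y means of the sterol transport, endothelial and microglia lists, and the highest of the adipocyte and blood cell lists. The mean over the 16 sterol enzymes was 7.76 in replicates 3 and 4 and 7.86 in replicate 2, against 8.04 to 8.14 in the other 3. These arrays were singled out after their values were seen, and no test was made of them.

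**Figure D5:**
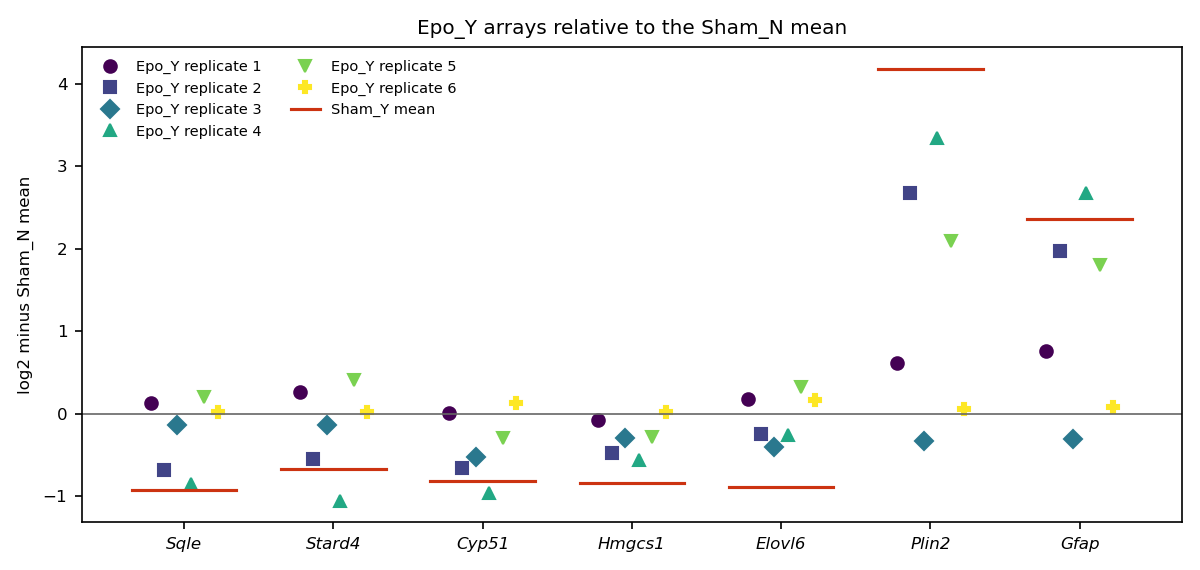
Log2 value of each Epo_Y array minus the Sham_N mean (vertical axis) for 5 members, Plin2 and Gfap, with 1 symbol per replicate and a red line at the Sham_Y mean. Replicates 2 and 4 are the lowest for Sqle, at 8.27 and 8.10 before subtraction, and the highest for Plin2, at 9.25 and 9.91.

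Sham_Y was also compared with Epo_N. By the labels these groups differ in both injury and EPO, and this comparison again shares the Sham_Y arrays. In it, 24 of 30 members were lower in Sham_Y and none higher, against 11.8% of all rows called lower, 8.28% called higher and 21.7% called lower among rows brighter than the median row. They were 13 of 16 sterol enzymes, 4 of 6 regulators and 7 of 8 fatty acid enzymes, with medians of -0.49, -0.51 and -0.43, against -0.02 for all rows. In 17 members the groups did not overlap, where 7.68% of all rows had every Sham_Y array below every Epo_N array.

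The largest differences from Epo_N were -1.17 ± 0.15 for Sqle (2.25-fold, limma adjusted p = 4.384e-06, n = 6 and 6) and -1.07 ± 0.13 for Elovl6 (2.10-fold, limma adjusted p = 2.63e-06). Late sterol genes called here included Sc5d at -0.53 ± 0.10 (limma adjusted p = 0.0002701), Dhcr7 at -0.45 ± 0.13 (limma adjusted p = 0.01765) and Nsdhl at -0.44 ± 0.15 (limma adjusted p = 0.04007). Fdft1 fell by 0.66 ± 0.15 and Acaca by 0.63 ± 0.18. The 6 members that did not pass were Fdps, Hsd17b7 and Ebp among the sterol enzymes, Srebf1 and Scap among the regulators, and Fads2. Here 18 members passed with the letter code as a fixed block, 6 within code 3D and 25 without Epo_Y replicate 3. Centred arrays gave 26 members lower while the calls over all rows went from 1925 higher and 2746 lower to 1559 higher and 4733 lower and the all-row median from -0.02 to -0.12. Quantile normalization gave 2424 rows higher, 2717 lower and 19 members lower, with Pmvk, Nsdhl, Dhcr7, Acly and Fads1 no longer called. Of the markers, 8 of 9 for neurons were lower in Sham_Y, against 11.8% of all rows and 21.7% of the brighter rows. Higher were 4 of 5 endothelial and 2 of 5 blood cell markers, against 8.28% of all rows. Of 9 microglia and macrophage markers 5 were higher and 2 lower, and of 6 astrocyte markers 3 were higher and 1 lower, while no oligodendrocyte lineage, choroid plexus or adipocyte marker passed. Their part was not tested.

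No member passed in the comparisons without the Sham_Y arrays, and no row of the table did (0.0% for each of Epo_N against Sham_N, Epo_Y against Epo_N and Epo_Y against Sham_N). At an unadjusted p under 0.05 limma gave 1803, 1892 and 1374 rows in the same order, and 3, 15 and 6 members. Against Sham_N, Epo_N had 29 of 30 members above 0, with a median of 0.14, and rows brighter than the median row had the same median of 0.14. Epo_Y against Epo_N had all 30 members below 0, with a median of -0.28 against -0.06 for all rows and -0.11 for rows brighter than the median row, and the lowest difference at -0.53 ± 0.14 for Cyp51 (limma adjusted p = 0.5387). The 95% interval of that difference ran from -0.82 to -0.24. Epo_Y against Sham_N had a median of -0.06, with Hmgcs1 at -0.28 ± 0.09 and Srebf2 at -0.30 ± 0.10.

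The difference between Epo_Y and Sham_Y was itself set against the difference between Epo_N and Sham_N, a contrast that takes the same value under both readings of the titles. It holds the Sham_Y minus Sham_N difference with its sign reversed, so it is not independent of that comparison. Hmgcs1 had an interaction of 0.54 ± 0.13 (limma adjusted p = 0.0135, n = 6 in each group) and Elovl6 of 0.67 ± 0.19 (limma adjusted p = 0.03068). These 2 of 30 members, 1 of each arm, were called higher, against 1.55% of all rows called higher and 5.75% lower, and no member was called lower. Centred arrays turned the calls over all rows from 360 higher and 1336 lower to 1239 higher and 935 lower and moved the all-row median from -0.08 to 0.12, quantile normalization gave 902 higher and 1208 lower, and both again gave 2 members higher. The other members did not pass, with Sqle at 0.46 ± 0.21 (limma adjusted p = 0.2203) and Ebp at -0.48 ± 0.19 (limma adjusted p = 0.1247). With the letter code as a fixed block, and within the arrays of code 3D, no member passed, and 1 passed without any of Epo_Y replicates 1, 5 and 6, Epo_N replicates 3, 4 and 5, Sham_Y replicate 3 or Sham_N replicates 4 and 6.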

How the data were processed

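RNA of the right hippocampus of 24 mice was measured on Affymetrix Mouse Exon 1.0 ST arrays. The authors' deposited values are log2 expression summaries, made with RMA in Affymetrix Expression Console per the submitters' processing notes; no source used here names the annotation build. The table has 23238 rows, of which 14939 carry 1 gene symbol, 989 several and 7310 none. All 30 symbols of measured members matched RefSeq by Entrez ID. Groups followed the start of the titles, with 6 mice each; accession-order replicate numbers pair no samples. The values were used as deposited, with no further scaling or filter. limma 3.58.1 in R 4.3.3 fitted a mean for each group with a shared variance (24 arrays, residual degrees of freedom 20), and p-values were adjusted by Benjamini-Hochberg over all rows, with a threshold of 0.05. The procedure was run on simulated data with normal noise, the same spread in every group and no scale differences between arrays. That setting does not cover the wider spread of Epo_Y or the effect of scaling. Named genes are the 6 sterol enzymes, 2 regulators and 4 fatty acid enzymes with the largest called difference between Sham_Y and Sham_N, and up to 4 genes of each further lipid list by the same criterion; genes named beyond these were chosen after their values were seen. Members and lists were chosen with earlier results of these data known. Array data carry no read depth, and the 6 arrays per group limit the precision. Alternatives were another threshold, quantile normalization, centring, a filter on dim rows, rows with 1 symbol, another variance model, array weights, the letter code of the titles as a block, subsets of arrays, and each array left out.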

Additional observations from a re-analysis of the deposited data

Results flagged for a closer look

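In 152 sets of 6 arrays (1 gene in 1 group), 13 arrays stood farther from the rest of their group than Dixon's 95% limit allows; by chance alone about 1 set in 20 does. Among sterol enzymes these were Mvk in Epo_N replicate 6 at 7.07, Ggps1 in Epo_Y replicate 3 at 6.74, and Fdft1 in Sham_N replicate 2 at 9.03 and in Epo_N replicate 6 at 8.43. Among regulators they were Insig1 in Sham_Y replicate 1 at 9.11 and Srebf2 in Sham_Y replicate 2 at 10.50, both the highest of their group. Among fatty acid enzymes they were Acly in Sham_N replicate 5 at 8.87 and in Epo_Y replicate 3 at 8.73, and Scd2 in Epo_N replicate 3 at 11.68. Among other lipid genes they were Npc2 in Epo_N replicate 5 at 8.98, Elovl1 in Epo_N replicate 6 at 8.13, and Plin2 in Sham_N replicate 5 at 6.05 and in Epo_N replicate 6 at 6.70.

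The difference between Epo_Y and Sham_Y departed from that between Epo_N and Sham_N in 8 named genes, by the interaction term of limma. Of these, 2 were among the 30 measured members. Of all rows, 1.55% had an interaction called above 0 and 5.75% below 0. The term holds the Sham_Y minus Sham_N difference with its sign reversed. The other lipid genes were picked by that same difference, so their interactions are not separate evidence. Hmgcs1 (0.54), Elovl6 (0.67) and Elovl2 (0.65) had interactions above 0 on the log2 scale. Plin2 (-3.27), Ch25h (-2.09), Elovl1 (-1.82), Npc2 (-1.20) and Lipa (-1.07) had interactions below 0. The call of Elovl2 held in 14 of 34 alternatives and that of Lipa in 17 of 34; both ended with the letter code as a fixed block (limma adjusted p = 0.1319 and 0.05967), in code 3D and without many single arrays, and that of Lipa also with centred arrays (0.05029). Elovl6 held in 22 and Hmgcs1 in 31 of 34. The causes were not tested.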

How the results depend on the processing

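No member was called in the opposite direction of its comparison, and none in the 3 comparisons without Sham_Y, under any setting run; the counts of calls moved. Values are given for sterol enzymes, regulators and fatty acid enzymes. In Sham_Y against Sham_N, with 6, 3 and 4 called lower, an adjusted p of 0.01 gave 3 sterol enzymes, centring gave 12 sterol and 7 fatty acid enzymes, the letter code as a fixed block gave 1 regulator, and code 3D gave 1, 0 and 0. In Sham_Y against Epo_N, with 13, 4 and 7, the stricter threshold and the fixed block each gave 4 fatty acid enzymes, and code 3D gave 4, 1 and 1. In Epo_Y against Sham_Y, with 4, 2 and 1 called higher, the stricter threshold gave 2 sterol enzymes and 0 regulators, centring gave 7, 4 and 6, quantile normalization gave 1 regulator, the fixed block and the 2 groups alone each gave 0 regulators, rows with 1 symbol gave 2 fatty acid enzymes, and code 3D gave 0, 0 and 0. The 2 members with an interaction became 0 at the stricter threshold, with the fixed block and in code 3D. Leaving out 1 array gave 4 to 8, 2 to 3 and 4 in the first comparison, 10 to 14, 4 and 6 to 7 in the second, 2 to 6, 0 to 4 and 1 to 2 in the third, and 1 to 3 interactions. In the third, 0 regulators passed without Sham_Y replicate 4 or Epo_Y replicate 6, and 4 without Epo_Y replicate 4. Lss, not called in Epo_Y against Sham_Y, turned from 0.08 to -0.038 with the fixed block and -0.30 in code 3D. Where fewer arrays or a stricter threshold do not account for a change, the cause was not tested. Every measured member has 1 row, so the choice among several rows could not be varied. No paired analysis was possible because the replicate numbers were given in accession order and pair no mice. Rows near the lowest signals, such as Fdps and Ch25h in Sham_N, carry little information on fold size.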
